A study of Mus musculus with 3 samples.

Results

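Txnip, Arrdc4 and the genes around them were examined in RNA-seq libraries of MC3T3-E1 cells, a mouse preosteoblast line derived from calvaria. The 8 genes, Txnip, Arrdc4, Arrdc1, Arrdc2, Arrdc3, Mlxip, Mlx and Mlxipl, were picked on the low FPKM values of Txnip and Arrdc4 in the Ti+Se-Met library, so the values of these genes are a description, and the low values of Txnip and Arrdc4 there are not a result in themselves. Of the 8 genes, 7 are listed among the 15287 genes of the deposited table, and all 7 reached 1 FPKM in 1 library or more, as did 11137 genes in all. The expression of Mlxipl was not analysed here. The study compared 3 conditions of wild type cells. CTL cells had no special treatment. Ti cells were kept for 24 h with titanium (Ti) particles, at 10 μg/cm2. Ti+Se-Met cells had the same dose of particles over the same 24 h, along with 5 μM selenomethionine (Se-Met). Each condition was 1 library of 1 cell line, so no difference had a replicate check, no test was made, and whatever set the cultures apart besides the treatment cannot be told apart from it.

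Txnip encodes the thioredoxin-interacting protein, which binds reduced thioredoxin and also lowers glucose uptake by drawing glucose transporters into the cell. It belongs to the alpha-arrestins, together with the products of Arrdc1 to Arrdc4, which act as adaptors that bring ubiquitin ligases of the NEDD4 family to membrane proteins. Txnip and Arrdc4 are the best known targets of MondoA, the product of Mlxip, and of its relative ChREBP, the product of Mlxipl. Either of these pairs with Mlx, enters the nucleus when glucose 6-phosphate is high, and binds a carbohydrate response element, which is a pair of E-box-like half-sites with 5 bases between them.

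The promoters of Txnip and Arrdc4 are shown because the 8 genes were picked on the low levels of these 2 in Ti+Se-Met. Arrdc1, Arrdc2, Arrdc3 and Mlxip also had their lowest level there, with smaller differences from Ti. RefSeq promoter windows on GRCm38.p6 were found for all 8 genes, in 11 entries, and the 250 bases before each start were searched for a pair of half-sites of the form CACGNG, on either strand, with 5 bases between them. The Txnip window, chr3:96557707-96557956 on the plus strand, held 1 such pair, from 85 to 69 bases before the start. The Arrdc4 window, chr7:68749239-68749488 on the minus strand, held no pair but 1 complete E-box, CACGTG, from 193 to 188 bases before the start. Capitals mark the half-sites in Txnip and the E-box in Arrdc4, and both sequences read 5′ to 3′ toward the start.
Txnip: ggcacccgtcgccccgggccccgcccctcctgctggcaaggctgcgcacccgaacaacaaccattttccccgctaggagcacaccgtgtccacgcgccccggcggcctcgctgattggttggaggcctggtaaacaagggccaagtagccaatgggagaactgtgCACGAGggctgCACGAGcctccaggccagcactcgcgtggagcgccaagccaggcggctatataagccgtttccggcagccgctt
Arrdc4: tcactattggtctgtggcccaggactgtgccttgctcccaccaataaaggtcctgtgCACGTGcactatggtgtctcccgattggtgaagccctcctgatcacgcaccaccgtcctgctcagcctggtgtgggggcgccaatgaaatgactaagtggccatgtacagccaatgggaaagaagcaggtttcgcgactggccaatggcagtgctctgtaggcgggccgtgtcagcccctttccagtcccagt

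The pair of half-sites was present in 24 of 32851 promoter windows of the same length (0.0731%), and among the 8 genes in Txnip alone. A complete CACGTG, which can be part of such a pair, was present in 6.02% of all windows, and among the 8 genes in Arrdc4, Mlx and 1 of the windows of Mlxipl. The letters CCAAT, known as a site of the factor NF-Y, occurred on either strand in 33.8% of all windows. They were found 6 times in the Arrdc4 window, a number reached in 19 windows (0.0578%), and 2 times in the Txnip window. The windows of Mlxip and Mlx held 2 as well, that of Arrdc2 held 3, those of Arrdc3 and Mlxipl at most 1, and that of Arrdc1 held 0. A match of letters is a description of the sequence and not a site shown to be bound. Over all promoter entries, 23 genes held the pair of half-sites, and 10 of these reached 1 FPKM in 1 library or more. In Ti+Se-Met against Ti, 1 gene of the 10, Txnip, was past 2-fold, beside 0.0629% of all genes lower and 0.162% higher. Txnip was picked for its low level there, so this count is not read further. The log2 ratios of the other 9 lay between -0.22 and 0.19. Their median was -0.07, against -0.06 for all genes. In Ti against CTL the median of these 9 was 0.29, against 0.08 for all genes, with log2 ratios from -0.62 to 0.51.

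The level of Txnip was 19.56 FPKM (CTL), 42.51 FPKM (Ti) and 0.96 FPKM (Ti+Se-Met). FPKM counts fragments per kilobase of transcript, scaled to the number of mapped fragments, so levels can be compared between genes. Txnip thus lay at the 63.0th percentile of the 11137 genes in CTL, at the 81.3rd in Ti and at the 3.37th in Ti+Se-Met. These values rest on an estimated 786, 1686 and 27 fragments. The level in Ti+Se-Met was 44.3-fold below that in Ti, with a 95% interval from 30.7-fold to 68.2-fold, and it was also below CTL, at 0.0491 of that level (interval 0.0318 to 0.0711). Against CTL, the Ti library held 2.17 times as much Txnip (interval 1.996 to 2.37). Intervals here and below are exact binomial ones on fragments estimated from the FPKM values. They hold counting error alone, without the error of the estimated depth, and describe these libraries rather than the conditions. In such bulk RNA, fewer cells that express a gene and less RNA of it per cell cannot be told apart.

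Arrdc4, an alpha-arrestin close to Txnip in sequence, had the same order of levels at a lower expression. It had 1.77 (CTL), 4.23 (Ti) and 1.39 FPKM (Ti+Se-Met). These values rest on about 63, 149 and 35 fragments. The highest value was again in the Ti library, at 2.39 times CTL (interval 1.77 to 3.27). In Ti+Se-Met the level was 0.329 of that in Ti (interval 0.22 to 0.476). Unlike Txnip, Arrdc4 did not go clearly below CTL, since the fold of Ti+Se-Met against CTL was 0.785 with an interval from 0.504 to 1.204. The listed transcripts of Arrdc4 are 1129 and 3905 bases long. With the shorter one the number of fragments is smaller, and the interval of Ti+Se-Met against Ti widens to 0.165 to 0.578, a length that was tried after the data had been seen.

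**Figure D1:**
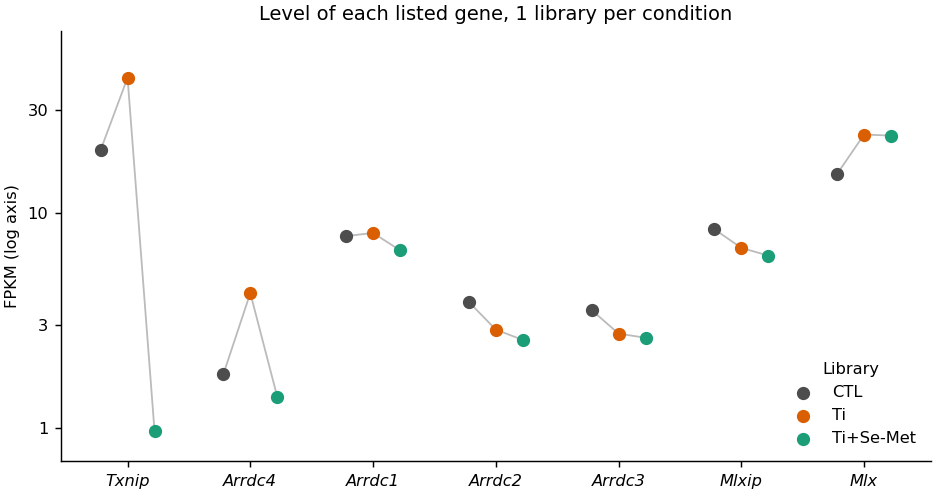
FPKM of the 7 listed genes (log axis) in the CTL, Ti and Ti+Se-Met libraries, 1 point per library, with lines joining the points of a gene. Txnip went from 19.56 to 42.51 and 0.96 FPKM and Arrdc4 from 1.77 to 4.23 and 1.39 FPKM, while the largest fold among the other 5 genes is 1.53, that of Mlx in Ti against CTL.

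The other alpha-arrestins differed less between libraries, and Arrdc1 had the same order of levels as Txnip and Arrdc4 within a narrow range. Arrdc1, an adaptor known for the budding of vesicles from the plasma membrane, had 7.79 (CTL), 8.06 (Ti) and 6.69 FPKM (Ti+Se-Met). The intervals of its fold included equal levels in all 3 comparisons as deposited, and its log2 ratio in Ti against CTL turned from 0.04 to -0.16 as TPM (all libraries brought to 1 common sum) and to -0.08 with upper-quartile scaling. As TPM, the interval of Ti+Se-Met against CTL, 0.577 to 0.954, lay below equal levels. Arrdc2 had 3.85 (CTL), 2.86 (Ti) and 2.56 FPKM (Ti+Se-Met). Both libraries with particles were lower than CTL, with folds of 0.743 (interval 0.564 to 0.979) and 0.665 (interval 0.479 to 0.906).
Arrdc3, an adaptor in the endocytosis of beta-adrenergic receptors, had 3.53 (CTL), 2.74 (Ti) and 2.62 FPKM (Ti+Se-Met). It too was lower than CTL in both libraries, with folds of 0.776 (interval 0.63 to 0.959) and 0.742 (interval 0.585 to 0.939). Comparing Ti+Se-Met with Ti, the intervals of Arrdc2 (0.632 to 1.24) and Arrdc3 (0.743 to 1.22) included equal levels, and the log2 ratio of Arrdc3 changed sign, from -0.05 to 0.002 and 0.004, under median-of-ratios or upper-quartile scaling. At this depth, differences of the size seen for Arrdc4 would lie outside these intervals. Lengths were found for 2 of 10 listed transcripts of Arrdc1, 1 of 3 of Arrdc2 and 1 of 4 of Arrdc3. The widths of the intervals of these genes depend on those lengths.

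The transcripts of the regulators differed little between the Ti and Ti+Se-Met libraries. Mlxip, which encodes MondoA, had 8.39 (CTL), 6.87 (Ti) and 6.32 FPKM (Ti+Se-Met). Its fold was 0.819 in Ti against CTL (interval 0.726 to 0.923) and 0.92 in Ti+Se-Met against Ti (interval 0.798 to 1.06). Mlx, the common partner of MondoA and ChREBP, had 15.15 (CTL), 23.13 (Ti) and 22.88 FPKM (Ti+Se-Met). It was higher in both libraries with particles than in CTL, with folds of 1.53 (interval 1.34 to 1.75) and 1.51 (interval 1.31 to 1.74), and these intervals lay above 1 under each scaling, with a lowest bound of 1.14 as TPM. For Ti+Se-Met over Ti the fold was 0.989 (interval 0.869 to 1.12), and the log2 ratio of -0.02 became 0.02 as TPM and 0.05 with the other scalings. FPKM reports transcript levels, and neither the amount of MondoA protein nor its place in the cell was measured in these files.
In level, Txnip and Mlx were the highest of the 7 genes in CTL, followed by Mlxip and Arrdc1, then Arrdc2 and Arrdc3, with Arrdc4 lowest. In Ti+Se-Met the highest was Mlx and the lowest Txnip, below Arrdc4.

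**Figure D2:**
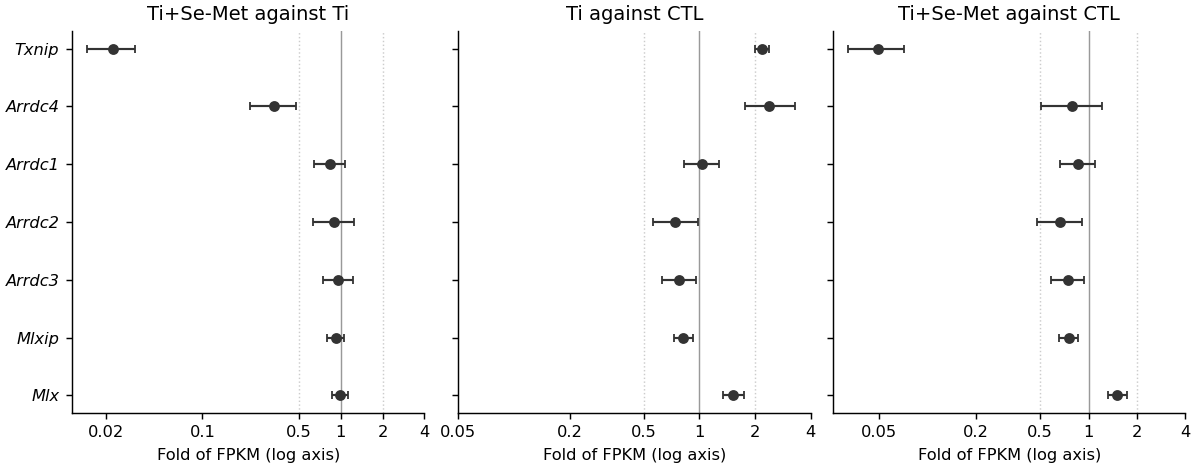
Fold of FPKM (log axis) for the 7 listed genes in each of the 3 comparisons, with bars for 95% intervals that cover counting error only, a solid line at equal levels and dotted lines at 2-fold. In Ti+Se-Met against Ti, Txnip (0.0226) and Arrdc4 (0.329) lie apart, and the bars of the other 5 genes cross the line of equal levels.

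Relative to all genes, a difference of 2-fold on the log2(FPKM + 1) scale was counted. In Ti+Se-Met against Ti, 7 of 11137 genes were at least 2-fold lower (0.0629%) and 18 at least 2-fold higher (0.162%). Of the 7 listed members, Txnip and Arrdc4 were among the 7 lower genes, with log2 ratios of -4.47 and -1.13, and 0 were among the higher ones. This count follows from the way the members were picked and is not read further. Txnip had the lowest log2 ratio of all genes and Arrdc4 the fourth lowest. Between them stood H3c14, a histone H3 gene with near-identical copies, and Entpd4, which encodes a nucleotide hydrolase. The FPKM of H3c14 was 0 (CTL), 3.58 (Ti) and 0 (Ti+Se-Met), and that of its relative H3c15 was 3.88, 0 and 2.85, so that reads of these genes may be split between copies and their values are uncertain. Entpd4 had 1.33, 1.29 and 0 FPKM. H3c14 and Entpd4 were listed at 0 in Ti+Se-Met, and H3c15 was chosen after its values were seen. The next log2 ratio after Txnip was thus -2.20. The last of the 7 genes past 2-fold was Higd1a with -1.03, and the first that did not reach it was Trp53inp1 with -0.99.

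Between Ti and CTL, 404 genes (3.63%) were higher by 2-fold or more and 405 (3.64%) lower. Txnip was past 2-fold with a log2 ratio of 1.08, and Arrdc4 stayed just below with 0.92, because adding 1 to each FPKM shrinks the ratios of genes with low values. As TPM and with upper-quartile scaling, Txnip also stayed below 2-fold, with log2 ratios of 0.86 and 0.95. TPM lowered the median over all genes in this comparison from 0.08 to -0.13, so part of every difference here depends on the scaling. Between Ti+Se-Met and CTL, 370 genes (3.32%) were lower by 2-fold or more and 294 (2.64%) higher. Txnip was the 1 member among the lower genes, with a log2 ratio of -3.39, the second lowest of all, and Arrdc4 had -0.21. Of the 11137 genes, 2 were at least 2-fold lower in Ti+Se-Met than in either other library, namely Txnip and Entpd4. A further count, of genes at least 2-fold above CTL in Ti and at least 2-fold below Ti in Ti+Se-Met, gave 4 genes, Txnip, Hmox1, Zfp52 and H3c14. The Ti library enters both of its steps.

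**Figure D3:**
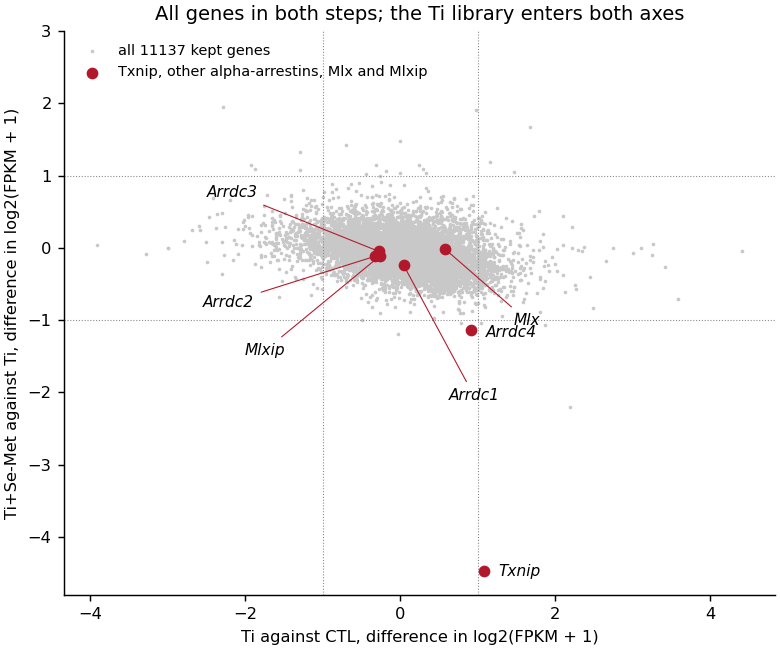
Difference in log2(FPKM + 1) of 11137 genes in Ti against CTL (horizontal axis) and in Ti+Se-Met against Ti (vertical axis), with the 7 listed genes in red and dotted lines at 2-fold. The Ti library enters both axes, so the axes are not independent. Txnip, at 1.08 and -4.47, lies far below the cloud, and Arrdc4, at 0.92 and -1.13, at its lower edge.

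The genes most like Txnip and Arrdc4 were sought by the Euclidean distance between the pairs of log2 ratios for Ti against CTL and Ti+Se-Met against Ti, over 3 libraries. No gene was close to Txnip, whose nearest neighbour was H3c14 at a distance of 2.53, followed by Arrdc4 at 3.35. Arrdc4 had near neighbours. Zfp52, a zinc finger gene, was at a distance of 0.15, with 7.84 (CTL), 17.16 (Ti) and 7.8 FPKM (Ti+Se-Met). Higd1a, which encodes a hypoxia-inducible protein of mitochondria, followed at 0.16, with 8, 14.53 and 6.58 FPKM. Next was Ccdc137 at 0.25, with 7.64, 15.45 and 7.95 FPKM. Among the 10 nearest to Arrdc4 were also Uqcr10, a subunit of respiratory complex III (26.9, 58.37 and 32.69 FPKM), and Id1, an inhibitor of basic helix-loop-helix factors (2.6, 6.09 and 3.15 FPKM). Each of these 5 genes had a level in Ti+Se-Met nearer to CTL than to Ti, as Arrdc4 did. This follows from the way the neighbours were chosen and is not read further.

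Of the other genes known to respond to MondoA or ChREBP that passed the filter, 0 were 2-fold lower in Ti+Se-Met than in Ti. Of 29 such genes, 27 were listed and 20 passed the filter of 1 FPKM. Txnip and Arrdc4, picked for their low levels there, were the 2 that differed by 2-fold between Ti+Se-Met and Ti. None was higher by that much, beside 0.0629% of all genes lower and 0.162% higher. The log2 ratios of the other 18 lay between -0.45 and 0.57, with 14 above and 4 below 0, and their median was 0.14, against -0.06 for all genes. The highest was that of Acly, ATP citrate lyase, with 78.69 (CTL), 51.87 (Ti) and 77.34 FPKM (Ti+Se-Met). The lowest was that of Irs2, with 3.15, 6.15 and 4.24 FPKM and a fold of 0.689 (interval 0.597 to 0.798).
In Ti against CTL, 3 genes of this list were at least 2-fold higher, namely Txnip, Klf10 and Hk2, and 1 was lower. Of all genes, 3.63% were higher and 3.64% lower. As TPM and with upper-quartile scaling, 2 of the list were higher, since Txnip stayed below 2-fold. Klf10, a zinc finger factor induced by glucose in liver, had 4.88 (CTL), 18.34 (Ti) and 16.67 FPKM (Ti+Se-Met). Hk2, a hexokinase that makes the glucose 6-phosphate sensed by MondoA, was at 7.23, 22.46 and 26.2 FPKM in the same order. The lower gene was Elovl6, a fatty acid elongase, at 62.7, 18.22 and 20.17 FPKM. Klf10, Hk2 and Elovl6 differed by less than 2-fold between Ti+Se-Met and Ti, and their calls against CTL held under each scaling. The list had a median of 0.07 in Ti against CTL, against 0.08 for all genes, and turned to -0.15 as TPM and -0.06 with upper-quartile scaling, against -0.13 and -0.04 for all genes. In Ti+Se-Met against CTL it was 0.10 (0.01 for all genes). There, 3 genes were past 2-fold higher and 2 lower, Txnip among the lower, beside 2.64% and 3.32% of all genes. As TPM the median turned to -0.09 (-0.17 for all genes) with 2 higher, since Bhlhe40 was lost.

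The network of Myc and Max, to which Mlx and MondoA are linked through shared partners, had 10 of 13 genes listed, all of which passed the filter. Of these, 0 differed by 2-fold between Ti+Se-Met and Ti, where the median was -0.13. Between Ti and CTL, 1 was past 2-fold, Myc, which was higher, beside 3.63% of all genes. Myc had 14.01 (CTL), 33.72 (Ti) and 25.22 FPKM (Ti+Se-Met), and its call was lost as TPM. Against CTL, 0 were past 2-fold in Ti+Se-Met, except Mxd4 as TPM. Mxd4, a Max partner that represses Myc targets and also binds Mlx, was at 86.35, 51.13 and 47.78 FPKM. Mnt, a repressor that pairs with Max or Mlx, was at 8.88, 12.35 and 11.13 FPKM.

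Genes for glucose uptake and phosphorylation were represented by 13 of 23 genes. With Se-Met against Ti, 0 were past 2-fold, with a median of 0.09, and the highest log2 ratio, 0.51, was that of Slc2a1. Slc2a1 encodes the glucose transporter GLUT1, whose removal from the membrane TXNIP promotes, and had 25.05 (CTL), 36.46 (Ti) and 52.24 FPKM (Ti+Se-Met). The fold of Ti+Se-Met over Ti was 1.43 (interval 1.34 to 1.53), while Slc2a6, a further glucose transporter, had the lowest log2 ratio of the list, -0.51, with 3.85, 4.83 and 3.1 FPKM and a fold of 0.642 (interval 0.469 to 0.878). Of the 13 genes, 7 were higher and 6 lower as deposited, and 8 and 5 under each other scaling. Between Ti and CTL, 2 genes were higher by 2-fold, beside 3.63% of all genes. They were Hk2 and Stbd1, a glycogen-binding protein (11.5, 27.08 and 23.41 FPKM). In Ti+Se-Met against CTL the 2 genes were Hk2 and Slc2a1, beside 2.64% of all genes. The calls of Stbd1 and Slc2a1 were lost as TPM, under which Gfpt1, the first enzyme of hexosamine synthesis, was past 2-fold lower in Ti against CTL (52.04, 28.63 and 34.1 FPKM), and that of Slc2a1 also with upper-quartile scaling. In the later steps of glycolysis, 20 of 23 genes passed the filter and 0 were past 2-fold in any comparison, except that Tigar, which diverts glucose from glycolysis, was past 2-fold lower in Ti+Se-Met against CTL as TPM. Their median was -0.09 in Ti+Se-Met against Ti, where that of all genes was -0.06. In Ti against CTL it was 0.26 (0.08 for all genes). It fell to 0.03 as TPM (-0.13 for all genes) and 0.13 with upper-quartile scaling (-0.04 for all genes).

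All 25 genes of the thioredoxin system, to which TXNIP binds, passed the filter. Against CTL, in the Ti library 4 were at least 2-fold higher and 1 lower, beside 3.63% and 3.64% of all genes. The median log2 ratio was 0.37, against 0.08 for all genes, and fell to 0.15 as TPM (-0.13 for all genes) and 0.24 with upper-quartile scaling (-0.04 for all genes). In the Ti+Se-Met library 1 gene, Txnrd1, was 2-fold above CTL and 1, Sesn1, below, beside 2.64% and 3.32% of all genes. The call of Txnrd1 there was lost as TPM and with upper-quartile scaling. Txnrd1, the cytosolic thioredoxin reductase and a selenoprotein, had 65.2 (CTL), 166.01 (Ti) and 135.24 FPKM (Ti+Se-Met), and its call in Ti against CTL held under each scaling. Prdx1, a peroxiredoxin, was at 250.26, 554.57 and 450.39 FPKM, and its call was lost as TPM. Prdx6 and Srxn1 were the others higher, at the limit of 2-fold, and were past it as deposited alone. The lower gene was Sesn1, a stress-induced sestrin, at 50.63, 18.05 and 18.99 FPKM. Txn1, thioredoxin itself, was at 199.64, 284.25 and 310.05 FPKM.
Between Ti+Se-Met and Ti, 0 of the 25 differed by 2-fold, and the median was -0.16, with log2 ratios from -0.53 to 0.39. Of the 25 log2 ratios, 8 lay above 0, as deposited and under each scaling.

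**Figure D4:**
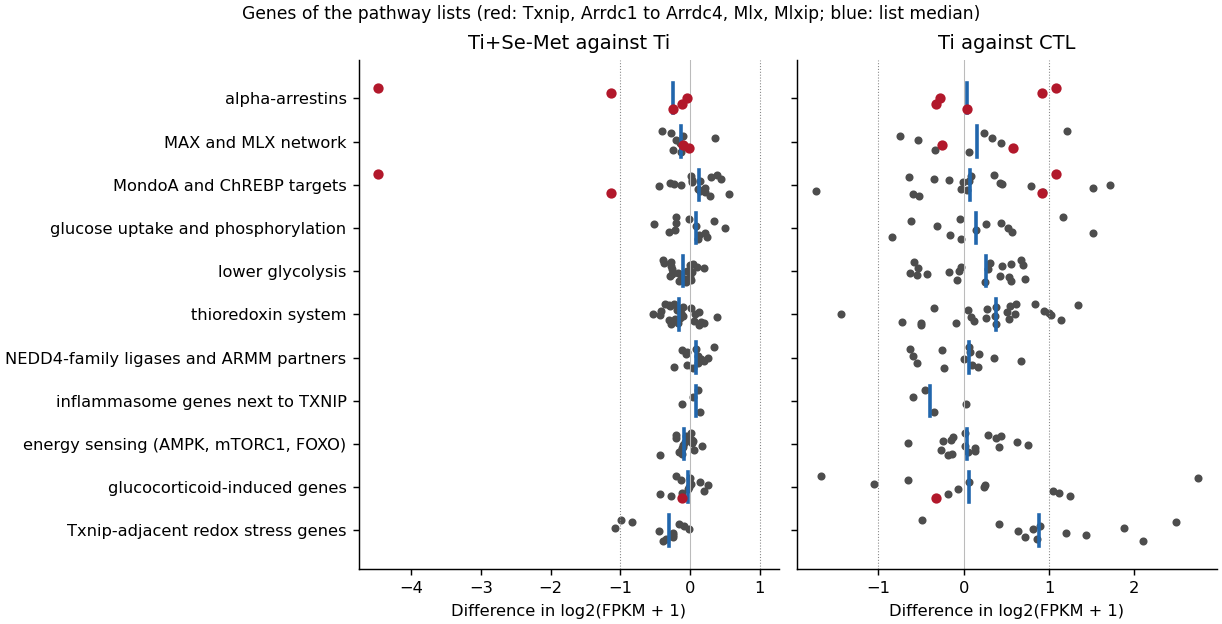
Difference in log2(FPKM + 1) of each gene that passed the filter, by pathway list, in Ti+Se-Met against Ti (left) and Ti against CTL (right). Red points are Txnip, Arrdc1 to Arrdc4, Mlx and Mlxip, blue bars are list medians, and dotted lines mark 2-fold. On the left, Txnip, Arrdc4 and Hmox1 lie at or past the lower line, and the medians stay between -0.29 and 0.13.

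The ubiquitin ligases that alpha-arrestins recruit were represented by 13 of 15 genes of the NEDD4 family and of vesicle budding, and 0 were past 2-fold in any comparison. Itch, the ligase known to mark TXNIP for degradation, had 19.13 (CTL), 16.12 (Ti) and 16.59 FPKM (Ti+Se-Met). Nedd4l, a close relative of Nedd4, was at 4.76, 8.17 and 9.59 FPKM. With Se-Met against Ti their median was 0.09.
Of 18 genes of AMPK, mTORC1 and FOXO signaling, which sense energy and nutrients, all passed the filter and 0 were past 2-fold in any comparison. Prkaa1, a catalytic subunit of AMPK, the kinase that phosphorylates TXNIP, was at 20.32 (CTL), 27.36 (Ti) and 25.6 FPKM (Ti+Se-Met). The lowest log2 ratio of this list in Ti+Se-Met against Ti was -0.43, that of Ddit4, an inhibitor of mTORC1.

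TXNIP has been linked to the NLRP3 inflammasome, but few of these genes were expressed here. Of 11 inflammasome genes, 8 were listed and 4 passed the filter, namely Gsdmd, Il18, Nek7 and Aim2. Nek7, a kinase that NLRP3 needs, had 28.84 (CTL), 20.81 (Ti) and 22.69 FPKM (Ti+Se-Met). Pycard, the inflammasome adaptor, was at 0.04, 0 and 0 FPKM, and Casp1 at 0.05, 0 and 0.07 FPKM. None of the 4 genes was past 2-fold in any comparison. Their median log2 ratio in Ti against CTL was -0.40, against 0.08 for all genes, and -0.43 to -0.57 under the other scalings. In Ti+Se-Met against CTL the median was -0.27, against 0.01 for all genes, and 4 of 4 were lower. Between Ti+Se-Met and Ti it was 0.08, against -0.06 for all genes, with 3 higher and 1 lower.

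Markers of other cell types were checked beside these values. Among osteoblast markers, 6 of 9 reached 1 FPKM. Of these, Spp1 was higher in Ti than in CTL and the others were lower. In Ti+Se-Met against Ti, Alpl was equal and the others were higher. Runx2 had 26.77 (CTL), 17.14 (Ti) and 22.97 FPKM (Ti+Se-Met). Dlx5 was at 12.34, 9.34 and 11.16 FPKM, and Alpl at 1.51, 0.2 and 0.2 FPKM. The chains of type I collagen were lower with particles, as Col1a1 had 1333.19 (CTL), 354.2 (Ti) and 481.63 FPKM (Ti+Se-Met) and Col1a2 had 2688.49, 998.91 and 1256.6 FPKM. Spp1, which encodes osteopontin, was higher, with 1261.19, 3705.78 and 4659.49 FPKM. The summed level of the list, 5325, 5087 and 6433 FPKM, adds these opposite differences. Ibsp, a late osteoblast marker, was at 0, 0.04 and 0 FPKM. Of 6 adipocyte and 4 endothelial markers, 0 reached 1 FPKM, and their summed levels ranged from 0.36 to 1.04 FPKM and from 0.13 to 0.24 FPKM over the libraries. Of 7 myeloid and osteoclast markers, 1 reached 1 FPKM, Ctsk, which fibroblast-like cells also express, so that their sum was 17.86 (CTL), 30.18 (Ti) and 26.74 FPKM (Ti+Se-Met). Csf1r was at most 0.1 FPKM. Of 4 muscle markers, Des reached 1 FPKM, and their sum was 1.21, 0.32 and 0.6 FPKM. The part of these markers in the levels of Txnip and Arrdc4 was not tested. The depth was estimated as 15250000 (CTL), 15050000 (Ti) and 10800000 fragments (Ti+Se-Met), so that the lowest Txnip value stands in the shallowest library.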

How the data were processed

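RNA-seq was carried out on 3 libraries of MC3T3-E1 cells, with 1 library for each of the 3 conditions. The authors removed adapter and low-quality reads, aligned the rest with HISAT2 and counted with HTSeq. FPKM per gene, to 2 decimals, is the unit deposited. The submitters' processing notes name HISAT2, StringTie, SAMtools and the build mm9. How FPKM was computed, and any scaling between libraries, is not given in the sources used here. Genes at 1 FPKM or more in any library were kept, libraries were compared by the difference in log2(FPKM + 1), and differences of 2-fold were counted. The software was Python 3.11.15 with scipy 1.17.1, pandas 2.3.3, numpy 2.4.6 and matplotlib 3.10.9.

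Depth was estimated from 453 genes with 1 transcript of 350 to 1000 bases, as the depth and the length correction (175 bases) that bring low values closest to whole fragments. Lengths came from GENCODE M21, found for 95.3% of genes. Of the low values, 48.5% to 53.8% lay within 0.1 of a whole fragment, against 20% for evenly spread values. Other length corrections that scored nearly as well gave 13100000 to 15850000 fragments in CTL, 13750000 to 15800000 in Ti and 9700000 to 11250000 in Ti+Se-Met. The steps were tested on simulated data, where the length correction and the transcript lengths were given. The choice of these was thus not tested. Named genes were the 8 members, genes of 11 pathway lists, marker genes and the 10 nearest genes by distance, and members and lists were chosen with earlier results of these data known. Alternatives were other pseudocounts, filters, scalings and folds.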

Additional observations from a re-analysis of the deposited data

How the results depend on the processing

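No paired analysis was possible because there was a single library of each condition, and no library could be left out. In Ti+Se-Met against Ti, 2 members were past 2-fold, and the number was 1, Txnip alone, with a pseudocount of 5, with a mean FPKM of at least 5 and at 4-fold. The filter takes Arrdc4 out by construction. In Ti against CTL, the number of 1, Txnip, became 2 with a pseudocount of 0.1 and at 1.5-fold, where Arrdc4 joined it, and 0 with a pseudocount of 5, as TPM, with upper-quartile scaling and at 4-fold. In Ti+Se-Met against CTL it was 1 under all 9 alternatives. The log2 ratio of Txnip in Ti+Se-Met against Ti lay between -5.33 and -2.99 and that of Arrdc4 between -1.54 and -0.53. A pseudocount or a filter cannot change the direction of a gene's ratio, so only the scalings could have. Neither gene changed direction under them, in this comparison or in Ti against CTL. The scalings multiplied the folds by 1.02 to 1.05 and by 0.852 to 0.970, too little to reverse them, so this is not read further. A median of a list moved by more than the median counting error of its single genes in 29 cases and by less in 202. A median over several genes has a smaller counting error than 1 gene, so this limit is lenient. Some of the 202 changed sign. Depth was lowest in Ti+Se-Met, so low values there are the least precise, and folds of genes below 1 FPKM rest on few fragments.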

Other observations

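Of 16 genes of the glucocorticoid response, to which Arrdc2 belongs, 13 passed the filter. The study's methods name dexamethasone, a glucocorticoid, in the osteogenic medium, and describe the 24 h cultures with particles separately, in an incomplete medium. Between Ti and CTL, 4 were at least 2-fold higher, namely Sgk1, Cebpd, Dusp1 and Errfi1, and 2 were lower, Tsc22d3 and Nr3c1, while 7 were past 2-fold in neither direction, beside 3.63% and 3.64% of all genes called higher and lower. The median was 0.06, against 0.08 for all genes. It turned to -0.17 as TPM and -0.08 with upper-quartile scaling, against -0.13 and -0.04 for all genes. Sgk1, a kinase of ion transport, had 16.64 (CTL), 117 (Ti) and 116.98 FPKM (Ti+Se-Met). Tsc22d3, which encodes the glucocorticoid-induced leucine zipper, was at 63.15, 19.06 and 16.56 FPKM, and Nr3c1, the glucocorticoid receptor, at 58.74, 27.93 and 28.33 FPKM. As TPM and with upper-quartile scaling, 2 genes were higher and 2 lower. Against CTL, 3 were higher in Ti+Se-Met and 2 lower, beside 2.64% and 3.32% of all genes, and 2 and 2 under those scalings. In Ti+Se-Met against Ti, 0 of the 13 were past 2-fold, and the median of -0.03 turned to 0.03 under median-of-ratios or upper-quartile scaling. The median of all genes moved from -0.06 to -0.002 and 0.0007 under the same scalings.

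All 12 genes of redox and amino acid stress passed the filter. In Ti against CTL, 5 were at least 2-fold higher and 0 lower, beside 3.63% and 3.64% of all genes. The median log2 ratio was 0.88, against 0.08 for all genes. As TPM, 4 were higher, since Ddit3 was lost, and the median was 0.72, against -0.13 for all genes. With Se-Met against Ti, 1 was at least 2-fold lower, Hmox1, beside 0.0629% of all genes. The median was -0.29, against -0.06 for all genes. Of the log2 differences, 12 of 12 lay below 0 as deposited and 11 of 12 under each of the 3 other scalings. The list was chosen with earlier results of these data known, and the Ti library enters both comparisons. These counts and medians are therefore a description and are not read further. Trib3, a pseudokinase induced by ATF4, had 4.73 (CTL), 31.28 (Ti) and 17.15 FPKM (Ti+Se-Met). Trp53inp1, a target of p53 and the 1 gene of the list that was lower in Ti than in CTL, was at 32.03, 22.54 and 10.85 FPKM, so that its lowest level, like that of Txnip, was in Ti+Se-Met.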
